A study of Homo sapiens with 7 samples.

Results

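G11 is a library of HUES66 cells, an established human embryonic stem cell line, whose label names a knockdown of RBFOX2 isoforms by an RBFOX2 id (178136) and a G number. It was compared with the only control library, whose genotype is given as WT, so 2 of the 7 libraries of the series enter the comparison. Both cultures carried a piggyBac construct (a transposon-based vector), received doxycycline at 1 µg/ml and were taken at 24 h. The labels do not say which isoform the id denotes, which guide RNA was used, or whether the control expressed Cas13d or a guide. Each group is 1 library of unstated clonality. The other 5 libraries (G3, G5, G12, G13 and G14) carry other RBFOX2 ids under the same treatment, and their values stand beside those of G11 to show how the same feature varied elsewhere.

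Cas13d is an RNA-guided nuclease that cuts RNA rather than DNA, so a guide placed on an exon or junction found in only some transcripts of a gene can in principle lower those transcripts and spare the rest. RBFOX2 encodes an RNA-binding protein that recognises GCAUG in introns and exons and switches the use of nearby exons, depending on whether it binds upstream or downstream of them. It is one of the main splicing regulators of human embryonic stem cells, and its own pre-mRNA is spliced in many ways, with several first exons and alternative internal exons.

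Full-length PacBio reads were counted per isoform, with 16801851 reads in the control and 20831857 in G11, and between 17848097 and 26678536 in the other 5 libraries. TPM here is the deposited unit, read counts scaled to the library total, with no term for transcript length. No group has a second library, so the differences below have no replicate check. Intervals reflect the counting of reads and nothing else. The table lists only isoforms with at least 1 read in the control; these hold 98.3% of the G11 reads. A lower gene total in G11 can therefore not be told apart from reads on isoforms that the table does not list. In a bulk library, fewer cells with a transcript and less of it per cell cannot be told apart either. Of 19 pluripotency genes, 15 passed the expression filter in this comparison, and POU5F1 stood at 916 TPM in the control and 505 TPM in G11. Of 10 markers each of mesoderm, endoderm and trophoblast, 6, 6 and 4 had a listed isoform. These summed to 3.22, 2.92 and 7.63 TPM in the control and to 1.03, 1.82 and 4.6 TPM in G11, with none past the filter. A marker with reads in G11 but none in the control is not listed, so the sums in G11 can be too low. Of 10 markers of ectoderm and neural cells, 4 were listed. They summed to 193 TPM in the control and 204 in G11, nearly all from OTX2 (109.71 and 140.25 TPM) and TUBB3 (80.8 and 61.1 TPM), the only 2 of 10 past the filter.

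The exon that separates the RBFOX2 forms lies on the minus strand of chromosome 22, inside the coding sequence. It is exon 9 of 13 in ENST00000449924.6 and exon 9 in ENST00000416721.6, 1 annotated transcript of each form. It ends at the same base in both forms but starts at a different acceptor, giving a long form (35759888 to 35760032) or a short form (35759888 to 35760020; GRCh38, GENCODE 29). The extra 12 nt, at 35760021 to 35760032, make 4 codons, keep the reading frame and end in AG. They are shown in capitals below, because they are the only bases of this exon that the long form has and the short form lacks. The long exon is followed by the junction of the preceding exon (30 nt) with the start of this one, in each form, read 5′ to 3′ from the GENCODE 29 transcripts ENST00000449924.6 and ENST00000416721.6.
Long exon: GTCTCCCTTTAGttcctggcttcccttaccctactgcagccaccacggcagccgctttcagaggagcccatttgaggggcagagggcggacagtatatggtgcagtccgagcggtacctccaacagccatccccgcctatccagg
Long junction: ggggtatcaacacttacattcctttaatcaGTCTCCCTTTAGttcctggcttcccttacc
Short junction: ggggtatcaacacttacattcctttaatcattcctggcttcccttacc
Outside the capitals the junction sequences are the same, so a read is assigned to a form by these 12 bases alone at this exon. Whether the guide of G11 matches these bases could not be examined, as guide sequences were not analysed here.

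The long form was nearly lost in G11 while the short form, summed over its annotated isoforms, was not lowered. Of the reads of the 6 annotated RBFOX2 isoforms with GENCODE 29 exons, the long form held 36.7% in the control (295 of 803 reads, Wilson 95% interval 33.5 to 40.1) and 4.62% in G11 (40 of 866 reads, 3.41 to 6.23). The share fell by 32.1 percentage points (adjusted p 7.92e-65, two-sided Fisher's exact test, 8 form tests), a test that compares these 2 libraries and not the conditions. The labels do not name this form. It was chosen with these data known, and the p-value does not allow for that choice. In the remaining libraries the share was 63.9% in G12, 56.9% in G3, 45.3% in G13, 36.1% in G14 and 35.9% in G5. G11 was thus the lowest of the 7 libraries, and its interval did not reach that of any other.

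**Figure D1:**
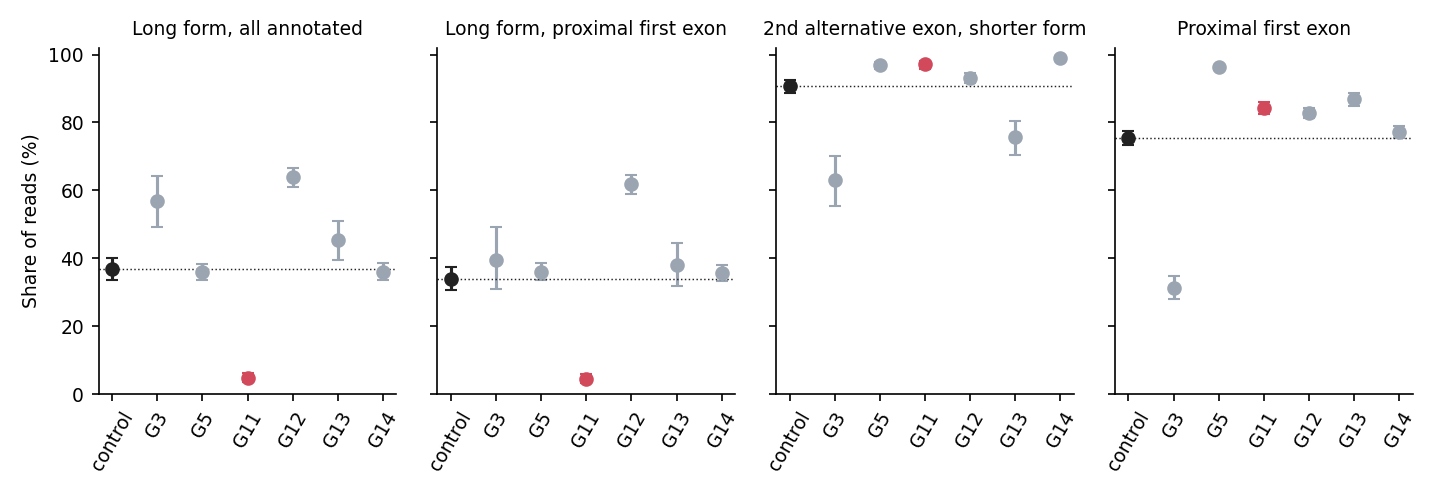
Share of reads (%, linear axis from 0) of the long form, of the long form among isoforms with the proximal first exon, of the shorter form of the second alternative exon and of the proximal first exon in each of the 7 libraries, with Wilson 95% intervals; control in black, G11 in red, the dotted line at the control. In the first pair of panels G11 stands at 4.62% and 4.45%, below the other 6 libraries.

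RBFOX2 transcripts also differ in their first exon, and the annotated isoforms with the long form start at both the proximal and the distal one. Among isoforms with the proximal first exon alone, the long form held 33.99% in the control (257 of 756 reads) and 4.45% in G11 (38 of 854 reads), a fall of 29.5 points (adjusted p 1.66e-56, Fisher's exact test). The same share was 61.8% in G12, 39.6% in G3, 37.9% in G13, 36.003% in G5 and 35.7% in G14. The fall was therefore seen within a single first exon. With the distal first exon, the only annotated isoform with exons was ENST00000438146.7, of the long form, which had 38 reads in the control and 2 in G11, or 4.24% of the control (0.496 to 16.4).

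By level, the 3 annotated long isoforms summed to 17.6 TPM in the control and 1.93 TPM in G11, or 10.9% of the control (exact 95% interval 7.66 to 15.3). The 3 annotated short isoforms summed to 30.2 TPM in the control and 39.7 TPM in G11, or 131% (117 to 147). The rise of the short isoforms by 9.41 TPM was smaller than the fall of the long isoforms by 15.6 TPM.

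The leading long and short isoforms showed the same split. ENST00000449924.6 (chromosome 22, 35738737 to 35840482), the leading long isoform, starts at the proximal first exon. It stood at 13.99 TPM in the control and 1.78 in G11, with 24.9 in G12, 19.5 in G5, 2.24 in G3, 24.7 in G14 and 3.38 in G13. G11 was the lowest library, with G3 and G13 next to it, and the control lay in the middle. In reads it fell from 235 to 37, to 12.7% of the control (8.73 to 18.02), and its share of RBFOX2 fell from 13.04% to 2.14% (adjusted p 2.13e-36, Fisher's exact test, 7 isoforms). ENST00000414461.6, a rarer long isoform, had 22 reads in the control and 1 in G11, a ratio of 3.67% with an interval from 0.0888% to 22.7%.

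ENST00000416721.6 (35743911 to 35840482) is the leading short isoform and the most abundant RBFOX2 isoform of the control. It stood at 28.1 TPM in the control and 38.6 in G11, beside 34.9 in G5, 15.6 in G12, 45.2 in G14, 3.31 in G3 and 5.75 in G13. Its level in G11 was exceeded only by that in G14. Reads numbered 472 in the control and 803 in G11, which is 137% of the control level (122 to 154), and its share of RBFOX2 rose from 26.2% to 46.5% (adjusted p 6.76e-36, Fisher's exact test). The minor short isoforms, ENST00000405409.6 and ENST00000397303.6, had 27 and 9 reads in the control and 13 and 10 in G11. They were at 38.8% (18.4 to 77.9) and 89.6% (32.7 to 249) of the control. ENST00000405409.6 was thus lower in G11 although it has the short form.

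Isoforms without a reference ID, called hashed isoforms here after their IDs, also differed, in both directions. The table gives their ends but not their exons, so their form at this exon is not known. Hashed isoform 2 (35742418 to 35840464, proximal first exon) stood at 7.14 TPM in the control and 0.58 in G11, with 1.91 in G14, 1.62 in G3, 12.8 in G13, 10.7 in G5 and 13.7 in G12. Hashed isoform 4 (35743599 to 36028799, distal first exon) stood at 5.06 TPM in the control and 0.34 in G11, with 6.18 in G12, 0.79 in G5, 5.43 in G3, 8.45 in G14 and 0.35 in G13. Both were lowest in G11, hashed isoform 4 hardly below its level in G13, at 8.07% (4.05 to 14.6) and 6.64% (2.59 to 14.3) of the control. Their shares of RBFOX2 fell with adjusted p-values of 5.85e-23 and 8.47e-18 (Fisher's exact test).

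Hashed isoform 1 (35743138 to 35840486, proximal first exon) moved the other way, from 15.5 TPM in the control to 21.9 TPM in G11, the highest of the 7 libraries and 142% of the control (121 to 166; adjusted p 8.24e-19 for its share, Fisher's exact test). Hashed isoform 3 and ENST00000695854.1, both with the distal first exon, were at 83.2% (66.4 to 104) and 71.2% (51.5 to 98.2) of the control. Their shares within RBFOX2 did not differ detectably at this depth (adjusted p 0.603 and 0.628, Fisher's exact test). Of the 7 isoforms that held at least 3% of RBFOX2 in either library, 3 were thus at least 2-fold lower, 2 were higher than the control, and 5 differed in share at an adjusted p under 0.05. These 7 isoforms held 78.4% of the RBFOX2 reads in the control and 89.9% in G11.

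**Figure D2:**
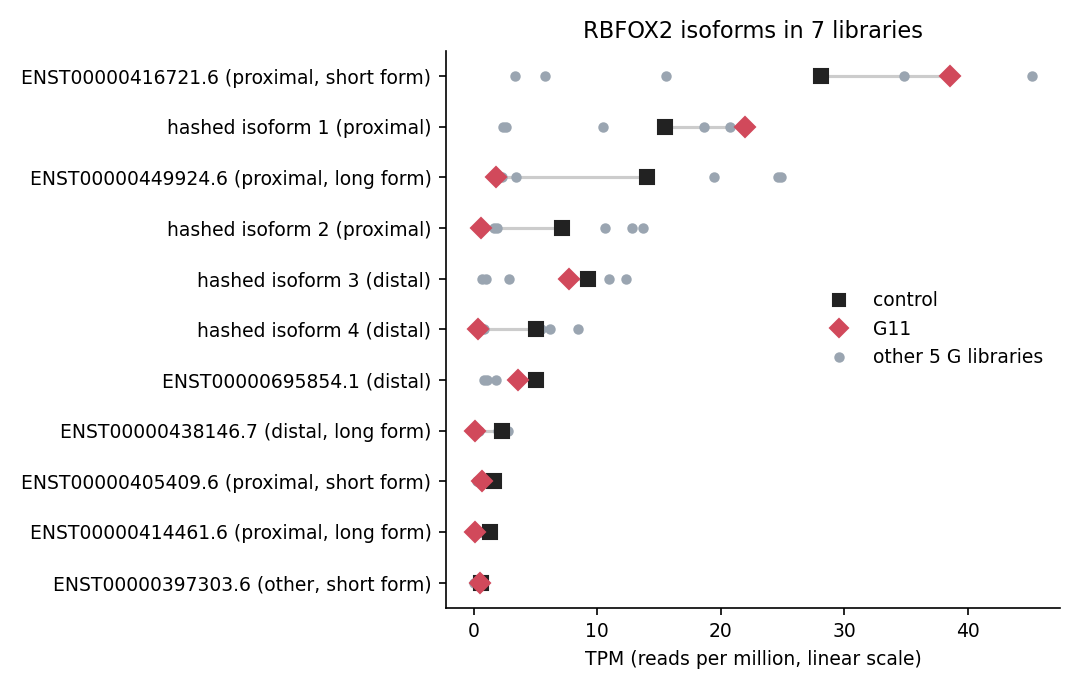
TPM (linear axis) of the 11 RBFOX2 isoforms named in the text in the 7 libraries, with the first exon and, where annotated, the form of the alternative exon; a grey line joins control (square) and G11 (diamond), and dots are the other 5 libraries. G11 lies at the left end for ENST00000449924.6 (1.78 TPM) and hashed isoforms 2 and 4, and at 38.6 TPM for ENST00000416721.6.

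The gene total was lowered much less than the long form. RBFOX2 (chromosome 22, 35738736 to 36028425) stood at 107 TPM in the control and 82.9 in G11, beside 96.8 in G5, 88.5 in G12, 106 in G14, 42.1 in G3 and 55.9 in G13. In G11 the total was 77.3% of the control (72.3 to 82.6; 1802 and 1726 reads; p 2.05e-14, two-sided Fisher's exact test against all other reads), and the other 5 libraries lay on both sides of it. Of the difference of -24.5 TPM, the annotated long isoforms made up -15.6, hashed isoforms 2 and 4 -6.56 and -4.72, and hashed isoform 3 -1.55. The annotated short isoforms added 9.41 and hashed isoform 1 added 6.47. The remaining 96 isoforms, which include the ones with few reads, together went from 22.6 to 10.7 TPM, or 47.6% of the control (40.1 to 56.3). All 106 listed isoforms had reads in the control and 35 had reads in G11. Because the table lists isoforms by their presence in the control, the fall of the rare ones is in part fixed by that choice.

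A further pair of RBFOX2 features moved less. The share of the proximal first exon was 75.5% in the control (73.5 to 77.5) and 84.3% in G11 (82.5 to 85.9), higher by 8.75 points (adjusted p 2.92e-10, Fisher's exact test). G12 stood at 82.9%, and G11 and G12 did not differ detectably at this depth (1.41 points, adjusted p 0.244, Fisher's exact test). A second alternative exon, at 35781600 to 35781743 in its shorter form, can be 3 nt longer at its acceptor. The shorter form held 90.8% of the annotated reads in the control and 97.1% in G11 (adjusted p 4.86e-08, Fisher's exact test), between the 96.9% of G5 and the 99.1% of G14. The form 3 nt longer had 74 reads in the control and 25 in G11. Of these, ENST00000438146.7 held 38 and 2, and it also carries the long form of the other exon. This shift therefore overlaps with the loss of the long form. The difference in the long form against G12, in contrast, was -59.3 points (adjusted p 6.61e-189, Fisher's exact test), the 2 libraries lying on opposite sides of the control.

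RBFOX2 was compared with other genes in how its isoforms were used in G11. Usage was measured as a total variation distance over 6179 genes with at least 200 reads in both control and G11. A distance of 0 means that a pair of libraries divided the reads of a gene among its isoforms in the same way, and 1 that they had no isoform in common. The distance of RBFOX2 was 0.331 to the control, 0.589 to G3, 0.283 to G5, 0.497 to G12, 0.444 to G13 and 0.281 to G14. The distance to the nearest library, 0.281, was the highest of all genes compared. Of the genes, 0.453% were at 0.1 or more from their nearest library, and the median gene was at 0.00827. The other G libraries carry RBFOX2 ids of their own, so the first rank of RBFOX2 is in part fixed by the design. RUFY1, which encodes an endosomal adaptor protein, followed at 0.150, then DEAF1, a transcription factor, at 0.140, AJUBA, a LIM-domain scaffold protein, at 0.135 and ODF2L at 0.129. In RUFY1, ENST00000437570.6 held 30.9% of the reads in the control and 53.6% in G11, the highest of the 7 libraries, with 75 and 111 reads.

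By distance to the control alone RBFOX2 ranked 15, and genes at 0.1 or more made up 14.3% of those compared. The 8 genes with the largest distance were EPRS1 (0.581), FEZ2 (0.464), ARSK (0.448), AGGF1 (0.435), DKC1 (0.420), CEP89 (0.389), ZNF326 (0.368) and CEP57 (0.365). For all 8 the control was the library farthest from G11, which their choice by distance to the control favours. EPRS1, the glutamyl-prolyl-tRNA synthetase, illustrates the kind of change: ENST00000366923.8 (chromosome 1, 219968599 to 220046533) held 21.5% of its reads in the control and 79.6% in G11. A shorter hashed isoform that ends upstream of it (220022368 to 220046536, minus strand) held 62.5% in the control and 17.3% in G11. In the other 5 libraries ENST00000366923.8 held 46.7% to 88.2%, so G11 lay inside their range. DKC1, the pseudouridine synthase of telomerase and of ribosomal RNA, differed between isoforms with nearly the same ends: ENST00000369550.10 held 15.2% in the control and 57.3% in G11, and ENST00000696577.1 held 71.9% and 31.6%.

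**Figure D3:**
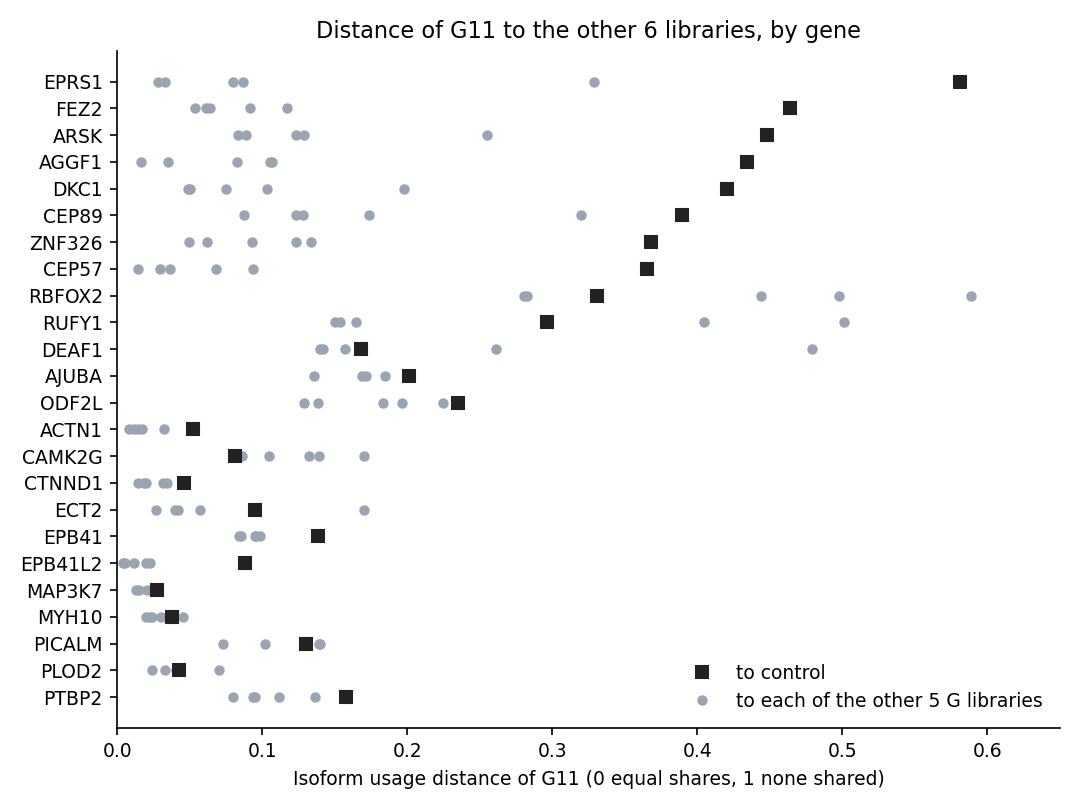
Isoform usage distance of G11 (0 to 1, linear axis) to the control (squares) and to the other 5 libraries (dots), for the 8 genes farthest from the control, the 5 farthest from their nearest library (RBFOX2 first) and 11 RBFOX splicing targets. RBFOX2 has no library nearer than 0.281, whereas EPRS1 lies at 0.581 from the control and 0.0278 from G13.

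Genes whose exons RBFOX proteins are known to regulate were examined next. Of 17 such targets, 13 passed the expression filter and 11 had enough reads for usage. Their median usage distance to the control was 0.0810, ranging from 0.0277 (MAP3K7) to 0.158 (PTBP2), beside a median of 0.0341 for all genes compared. At 0.1 or more were 3 of the 11, beside 14.3% of all genes compared. These were PTBP2 (0.158), the neuronal paralogue of the splicing repressor PTBP1, EPB41 (0.139), a membrane-skeleton protein, and PICALM (0.130), a clathrin adaptor. The distances of these 3 to their nearest library were 0.0796, 0.0838 and 0.0731. Sampling alone raises this distance where reads are few and many isoforms are kept apart. Reads in the control and G11 were 229 and 248 for PTBP2 (5 isoforms apart) and 598 and 452 for EPB41 (7). For PICALM they were 317 and 311 (7). The part of sampling in the distances of the targets was not tested. Against the other G libraries the median of the 11 targets was 0.0327 for G3, 0.0265 for G5, 0.0401 for G12, 0.0451 for G13 and 0.0407 for G14, each below that to the control. Only isoforms with a read in the control are listed, which can raise a distance to the control. What that choice adds here was not tested. The medians over all genes for the same pairs were 0.0230, 0.0180, 0.0201, 0.0231 and 0.0218.

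The annotated isoform ENST00000609116.5 of PTBP2 held 16.6% in the control (38 reads) and 22.98% in G11 (57 reads), with 21% to 28.03% in the other 5 libraries. In EPB41L2, a relative of EPB41, ENST00000628542.2 held 52.1% in the control and 60.9% in G11, within the 58.9% to 61.5% of the other 5 libraries. In ECT2, which acts in cytokinesis, ENST00000232458.9 held 10.1% in the control and 17.1% in G11, where the others ranged from 14.6% to 31.01%. In these 3 isoforms, chosen after their values were seen, the share in G11 lay among those of the other G libraries and above that of the control. Other isoforms of the targets did otherwise. A hashed isoform of PTBP2 (chromosome 1, 96777593 to 96814787) held 1.75% in the control and 6.45% in G11, with 1.89% to 3% elsewhere, but from only 4 and 16 reads. A hashed isoform of PICALM (chromosome 11, 85957178 to 86031614) held 1.89% and 6.75%, with 0.868% to 5.46% elsewhere, from 6 and 21 reads. Of the 11 targets, 6 were farthest in usage from the control and 5 from another library, and CAMK2G had the control as its nearest library.

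By level, 0 of 13 targets were at least 2-fold higher and 1 of 13 at least 2-fold lower, beside 0.724% and 10.4% of all 7878 genes compared, so these counts do not set the targets apart. They had a median log2 ratio of 0.05 that became -0.02 against the median of the other 6 libraries and -0.01 once the trend with length and GC content was taken out. The lower one was CLSTN1, encoding the transport adaptor calsyntenin, at 18.8 TPM in the control and 4.99 in G11, with 3.68 in G14, 41.02 in G3, 0.78 in G13, 17.3 in G5 and 3.07 in G12. Its level in G11 was 26.5% of the control (21.1 to 33.2), yet higher than in G12, G13 and G14. The partners of RBFOX in the LASR complex were not 2-fold different in any of the 7 members that passed. ILF2, the largest difference among them, was at 164% of the control (162 to 166). RBFOX1 and RBFOX3 were near 0, with 8 and 4 reads in the control and 2 and 0 in G11.

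Across 7878 genes with a mean of at least 5 TPM over the 7 libraries, 57 genes (0.724%) were at least 2-fold higher and 816 (10.4%) at least 2-fold lower in G11 than in the control, 11.1% together. The median log2 ratio was -0.04, and 5% of genes lay below -1.27 and 5% above 0.63. The lower genes made up 93.5% of those past 2-fold, a share that became 72.2% (97 higher, 252 lower) when the trend with transcript length and GC content was removed and 77.6% at a 1.5-fold threshold. Against the other libraries, G11 had 2 genes higher and 201 lower than G5, 5 and 2 against G12, 95 and 47 against G14, 453 and 4 against G13, and 36 and 708 against G3. By these counts G12 was the library most like G11 in gene level. As the ratio to the control alone uses a single control library, a property of that library enters every gene below.

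**Figure D4:**
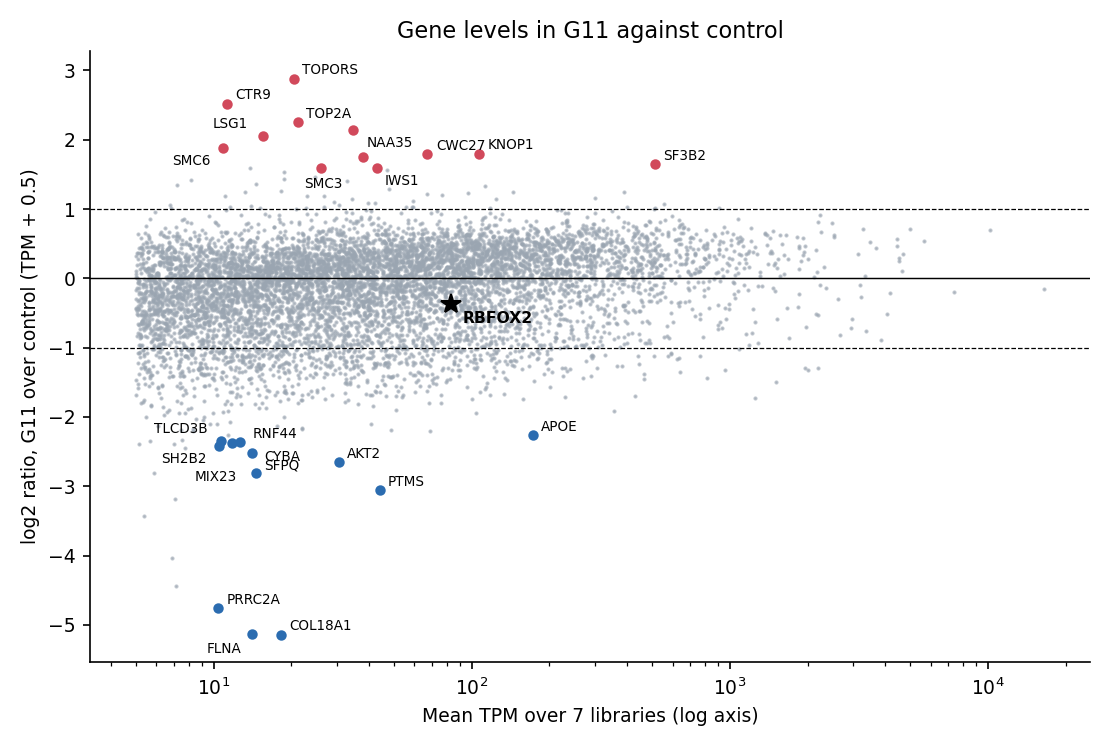
Mean TPM over the 7 libraries (log axis) against the log2 ratio of G11 over control (TPM + 0.5) for 7878 genes, with dashed lines at 2-fold; the 12 largest rises (mean of at least 10 TPM) are red, the 12 largest falls blue, and RBFOX2 is a star at -0.37. The cloud reaches further down (816 genes below the lower line) than up (57 above the upper one).

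The 12 largest differences upward, among genes with a mean of at least 10 TPM, included those of TOPORS, CTR9, TOP2A, LSG1, SMC6, KNOP1, CWC27, NAA35, SF3B2, SMC3 and IWS1. TOPORS, a ubiquitin and SUMO ligase (chromosome 9, 32540544 to 32552553), stood at 2.68 TPM in the control and 22.95 in G11, with 21.7 in G12, 20.4 in G5, 11.7 in G3, 35.95 in G14 and 28.1 in G13, 8.57-fold above the control in G11 (6.30 to 11.9). CTR9, a subunit of the PAF1 elongation complex (chromosome 11, 10750987 to 10801625), stood at 1.67 TPM in the control and 11.96 in G11, beside 12.02 in G5, 12.5 in G12, 17.9 in G14, 8.07 in G3 and 14.5 in G13. TOP2A, the topoisomerase that untangles mitotic chromosomes (chromosome 17, 40388516 to 40417950), stood at 4.36 TPM in the control and 22.8 in G11, with 38.97 in G14, 5.60 in G3, 33.2 in G13, 18.2 in G5 and 25.4 in G12. In each the control was the lowest library and G11 lay inside the range of the other 5.

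That held for the whole group: the control was the lowest of the 7 libraries in all 12 genes, and G11 was the highest in 0. As the 12 were picked by their ratio to the control, a low control is in part fixed by that choice. SMC3, of cohesin, and SMC6 were at 3.18-fold (2.58 to 3.95) and 4.09-fold (3.04 to 5.61) of the control. IWS1, an elongation factor, was at 3.09-fold (2.69 to 3.55). SF3B2, a subunit of the U2 small nuclear ribonucleoprotein, was the most abundant of the 12, at 192 TPM in the control and 602 in G11, with 528 in G12, 535 in G5, 429 in G3, 740 in G14 and 556 in G13. Its reads numbered 3220 in the control and 12543 in G11, a 3.14-fold difference (3.02 to 3.27).

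The 12 largest differences downward were those of COL18A1, FLNA, PRRC2A, PTMS, SFPQ, AKT2, CYBA, SH2B2, MIX23, RNF44, TLCD3B and APOE. COL18A1, a basement membrane collagen (chromosome 21, 45405137 to 45513720), stood at 22.4 TPM in the control and 0.15 in G11, beside 6.43 in G5, 0.41 in G12, 0.19 in G14, 98.0 in G3 and 0.04 in G13. It had 376 reads in the control and 3 in G11, 0.644% of the control (0.132 to 1.90). FLNA, the actin cross-linker filamin A (chromosome X, 154348524 to 154374638), stood at 24.0 TPM in the control and 0.20 in G11, with 0.05 in G14, 56.8 in G3, 0.04 in G13, 17.2 in G5 and 0.30 in G12, with 403 reads in the control and 4 in G11. For both genes the control, G3 and G5 formed the high side, and G11, G12, G13 and G14 all lay below 0.5 TPM.

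PRRC2A (chromosome 6, 31620720 to 31637771) showed the same division, at 18.5 TPM in the control, 46.2 in G3 and 7.37 in G5 but between 0.00 and 0.30 TPM in the other 4 libraries, with 309 reads in the control and 4 in G11. SFPQ, a paraspeckle protein, stood at 11.2 TPM in the control and 1.16 in G11, with 0.45 in G12, 4.85 in G5, 79.9 in G3, 4.02 in G14 and 0.78 in G13. APOE, the lipid carrier apolipoprotein E (chromosome 19, 44905754 to 44909393), was the most abundant of the 12 and divided differently. It stood at 448 TPM in the control and 92.7 in G11, beside 124 in G5, 99.1 in G12, 77.6 in G14, 274 in G3 and 93.2 in G13, at 20.7% of the control in G11 (19.7 to 21.8; 7528 and 1931 reads).

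None of the 12 falls had its lowest value in G11. The control was the highest library in 5 of them, among these PTMS (122 TPM in the control, 14.2 in G11), CYBA, RNF44 and APOE, and G3 in 7, among these AKT2 (49.9 TPM in the control, 7.49 in G11). The 12 falls were picked by their ratio to the control, which favours a high control. The median GC content of the transcripts of the 12 falls was 63.9%, beside 42.8% for the 12 rises and 47.9% for all genes compared. The part of GC content in these differences was not tested gene by gene.

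Transcript length and GC content moved with the ratio across all genes. In the shortest of 5 bins of genes (up to 1611 nt), the median log2 ratio was -0.71 and 30.4% of the genes were at least 2-fold lower, whereas the medians of the other 4 bins lay between 0.01 and 0.10. Among the genes richest in GC the median was -0.55 and 27.5% of the genes were lower, beside 0.18 and 1.97% in the bin poorest in GC. By length, the other libraries also had a low shortest bin against the same control, with a median of -0.53 in G3, -0.83 in G5, -0.37 in G12, -0.41 in G13 and -1.002 in G14. By GC content they differed: the medians of the poorest and richest bins were 0.06 and -0.62 in G12, 0.09 and -0.88 in G13, 0.27 and -0.90 in G14, 0.24 and -0.10 in G5, and in G3, with the opposite order, 0.08 and 0.21. These comparisons share the control and are given side by side only. Genes with a mean between 5 and 10 TPM were past 2-fold in 15.8% of cases and those at 100 TPM and above in 6.36%.

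The gene lists below are read against 10.4% lower and 0.724% higher over all genes, or 3.2% lower and 1.23% higher once the trend with length and GC content is removed. Of 66 cytosolic ribosomal protein genes that passed the filter, 33 were at least 2-fold lower and 0 higher, and their median log2 ratio was -0.996. RPS2 (157.65 TPM in the control, 33.7 in G11), RPL36 (29.6 and 8.03), RPLP1 (45.8 and 14.3) and RPL29 (96.9 and 32.8) were the lowest. Their levels are uncertain, since processed pseudogenes copy them closely and the sources used here do not say where reads matching more than 1 locus were counted. Their median length was 979 nt, and after removal of the trend with length and GC content the median ratio was -0.38, with 10 of 66 lower and 1 higher.

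Of 67 nuclear-encoded subunits of the respiratory chain, 21 were lower and 0 higher, with a median of -0.80. With the trend removed, 4 were lower and 1 higher and the median was -0.17. ATP5F1D, a subunit of ATP synthase, was at 35.5 TPM in the control and 11.3 in G11, and COX5A, of cytochrome oxidase, at 56.6 and 21.4 TPM. Of 74 mitochondrial ribosomal protein genes, 19 were lower and 0 higher (median -0.65), or 3 and 1 with the trend removed (median -0.30), MRPS6 most, at 30.8% of the control (27.9 to 33.8). Of 32 proteasome subunits, 5 were lower and 0 higher (median -0.27), or 4 and 0 with the trend removed (median -0.04), among these PSMB5, a catalytic subunit, at 39.1% (38.2 to 40.001). The direction of these medians was the same under all alternatives run, but their size was not.

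Of 21 genes of the actin cytoskeleton, 10 were at least 2-fold lower, FLNA among them, and 0 higher, beside 10.4% lower over all genes, with a median of -0.84. With the trend removed, 3 of 21 were lower, beside 3.2% over all genes, and the median was -0.21. MYH9, the heavy chain of non-muscle myosin, stood at 25.7 TPM in the control and 6.63 in G11, with 5.14 in G14, 40.2 in G3, 2.41 in G13, 25.9 in G5 and 5.54 in G12. TPM2, a tropomyosin, was at 29.2% of the control (25.8 to 33.0) and TAGLN, transgelin, at 34.7% (31.2 to 38.6). MYH9 and FLNA shared the division of the libraries into control, G3 and G5 on the high side and the rest on the low side.

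**Figure D5:**
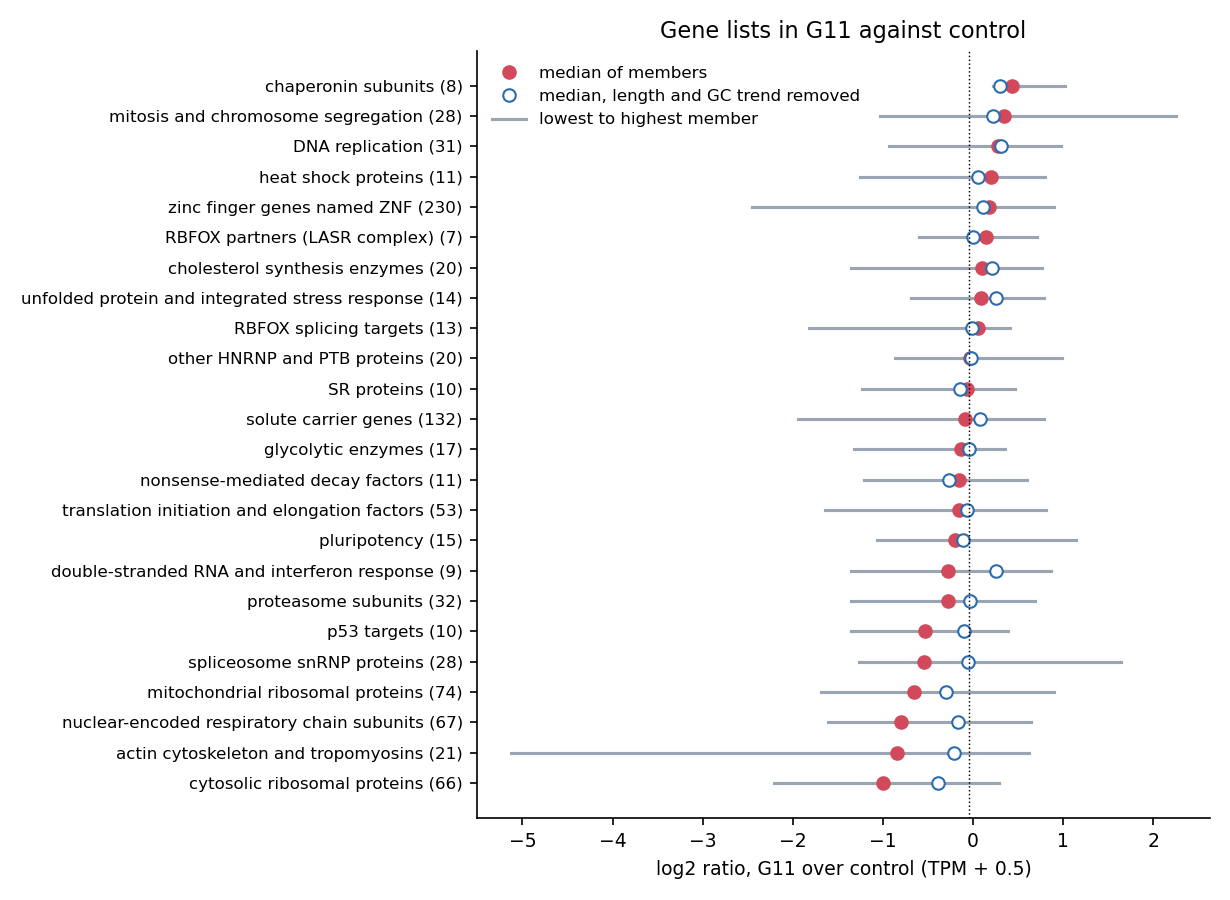
Log2 ratios of G11 over control (TPM + 0.5) for 24 gene lists, with the number of members that passed the filter in brackets: filled points are medians, open points medians after removal of the length and GC trend, lines run from the lowest to the highest member, and the dotted line is the median of all genes (-0.04). Ribosomal proteins have the lowest median (-0.996, open point -0.38) and chaperonin subunits the highest (0.44).

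Among splicing factors, the counts stand beside 10.4% lower and 0.724% higher over all genes. Of 10 SR proteins, which promote exon inclusion, SRSF7 and SRSF9 were lower, at 44.6% (43.5 to 45.7) and 42.4% (41.1 to 43.8) of the control, and 0 were higher (median -0.07). Only SRSF7 was past 2-fold with the trend removed. SRSF9 stood at 667 TPM in the control and 283 in G11, with 434 in G12, 316 in G5, 662 in G3, 348 in G14 and 412 in G13, so G11 was the lowest library. Of 20 other HNRNP and PTB proteins, 0 were 2-fold different (median -0.03, but 0.02 with median-of-ratios scaling and 0.05 against the median of the other 6 libraries), and HNRNPR came nearest, at 199% of the control (193 to 206). Of 28 proteins of the spliceosomal snRNPs, 6 were lower, among these SNRPB, SNRPB2 and PRPF8, and 1, SF3B2, was higher, whereas 1 was lower and 1 higher with the trend removed. Their median was -0.55 but 0.01 against the median of the other 6 libraries. Of 11 factors of nonsense-mediated decay, which destroys transcripts with early stop codons, 1, UPF3B, was lower, at 5.78 TPM in the control and 2.21 in G11, and 0 were higher (median -0.15, or 0.05 against the median of the other 6).

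Some lists of long or GC-poor transcripts leaned upward, with few members past 2-fold. With the trend removed the medians were 0.23 for mitosis, 0.29 for chaperonin subunits, 0.31 for DNA replication and 0.11 for ZNF genes. The median of all genes was then 0.05. Of 28 genes of mitosis and chromosome segregation, 3 were higher (TOP2A, SMC2 and NCAPH, the last a pair of condensin subunits) and 1, the kinase AURKB, was lower, beside 0.724% higher over all genes, and the median was 0.35. TOP2A alone was past 2-fold with the trend removed. SMC2 was at 214% (168 to 274) and NCAPH at 206% of the control (173 to 246). All 8 subunits of the chaperonin CCT were above the control, from 0.22 (CCT3) to 1.02 (CCT6A) on the log2 scale, with 1 past 2-fold, or 0 with the trend removed. CCT6A stood at 299 TPM in the control and 607 in G11, beside 601 in G5, 470 in G12, 593 in G14, 516 in G3 and 515 in G13, where G11 was the highest and the control by far the lowest. Of 31 genes of DNA replication, 0 were past 2-fold either way (median 0.28); MCM6 and MCM10, both at a log2 ratio of 0.98, were the nearest. Of 230 ZNF genes, 0 were higher and 10 lower (median 0.18), or 1 and 3 with the trend removed, ZNF687 most, at 13.4 TPM in the control and 2.03 in G11.

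Lists of pluripotency and stress genes are again read against 10.4% lower and 0.724% higher over all genes. Of the 15 pluripotency genes, L1TD1, an RNA-binding protein of stem cells, was higher, at 18.2 TPM in the control and 41.01 in G11, with 39.1 in G14, 39.4 in G3, 37.2 in G13, 40.5 in G5 and 24.9 in G12. NANOG was lower, at 10.1 TPM in the control and 4.54 in G11, with 4.22 in G12, 5.57 in G5, 4.87 in G3, 3.51 in G14 and 3.54 in G13. In L1TD1 the control was lowest and G11 highest, hardly above G5. In NANOG the control was highest and G11 inside the range of the other 5, but NANOG and POU5F1 have close pseudogene copies, which makes their levels uncertain. With the trend removed, 2 of the 15 were lower and 0 higher. The list's median was -0.20, or 0.07 against the median of the other 6 libraries.

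Of 10 p53 targets, BAX and BBC3, both promoters of cell death, were lower, at 39.001% (37.0 to 41.1) and 47.3% (38.5 to 57.9) of the control, and 0 were higher (median -0.53). With the trend removed 0 of 10 were past 2-fold (median -0.10). Of 9 genes of the response to double-stranded RNA and interferon, 1, ISG15, was lower and 0 higher (median -0.27), or 0 past 2-fold with the trend removed (median 0.26). Of 14 genes of the unfolded protein and integrated stress response, 0 were past 2-fold (median 0.09), HERPUD1 being nearest at 173% (166 to 180). Of 11 heat shock proteins, HSP90AA1, HSPB1 and HSPE1 were lower and 0 higher (median 0.20), and HSP90AA1 alone with the trend removed. Of 53 translation factors, 8 were lower, EIF3G among them at 43.8% (41.7 to 46.1), and 0 higher (median -0.16, or 0.00 against the median of the other 6), but 0 of 53 were past 2-fold with the trend removed. Of 17 glycolytic enzymes 1, GAPDH, and of 20 enzymes of cholesterol synthesis 1, PMVK, was lower, and 0 of either list were higher (medians -0.14 and 0.10). In both lists 0 were past 2-fold with the trend removed. Of 132 solute carriers, 5 were lower and 0 higher (median -0.09), or 3 lower and 2 higher with the trend removed (median 0.08). SLC7A5, an amino acid transporter, was at 25.9% (23.9 to 27.96).

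Few genes set G11 apart from all other libraries. G11 was above the range of the other 6 and at least 1.5-fold from their median in 1 gene (0.0127%) and below it in 22 (0.279%), the fewest of the 7 libraries. The same counts were 1111 above and 319 below for the control, 1402 and 272 for G3, 70 and 139 for G5, 28 and 86 for G12, 100 and 1279 for G13, and 183 and 856 for G14. The gene above was H2AC6, a histone H2A gene (chromosome 6, 26124145 to 26139116), named because it was the only one. It stood at 26.5 TPM in the control and 41.1 in G11, beside 37.2 in G5, 27.3 in G12, 30.2 in G14, 26.2 in G3 and 26.3 in G13, so the gap to G5 was small, and histone genes are similar in sequence.

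Among the genes below the range, DHRS11, a short-chain dehydrogenase (chromosome 17, 36591798 to 36600806), had the widest gap of those with a mean of at least 10 TPM. It stood at 34.5 TPM in the control and 11 in G11, with 31.7 in G14, 52.96 in G3, 14.3 in G13, 17.3 in G5 and 14.8 in G12. RPS2, PDXK (pyridoxal kinase) and TCEA2 (an elongation factor) came next, with 33.7, 6.53 and 17.1 TPM in G11 and at least 43.2, 8.15 and 20.7 TPM in every other library. FASN, the fatty acid synthase, and SCAF1 were also below the range; they were named after their values were seen, with 195 and 337 reads in the control and 5 and 9 in G11. Both were also below 1 TPM in G12, G13 and G14. Without the 1.5-fold criterion, the widest gaps upward were those of TRIML2 (14.6 TPM in G11, 10.4 to 11.9 elsewhere), TRMT10A (20.3, and 12.9 to 17.1) and FEM1C (17.5, and 10.1 to 15.04). The gaps of these genes were narrow on the log2 scale, 0.28, 0.24 and 0.21.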

How the data were processed

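PolyA RNA of 7 cultures was sequenced by PacBio MAS-Seq (cDNA joined into 8-fold arrays, split in software), per the labels' protocols. The deposited table gives, per the file headers, the number of full-length reads (a count) and the TPM of each isoform, library by library. The TPM values deposited by the authors equal the count divided by a constant per library, with no length term. minimap2 2.17 and GRCh38 (hg38) are named in the submitters' processing notes; the isoform caller and annotation are not given in the sources used here. Empty cells were read as 0, and starts are printed with 1 added.

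Isoforms (386982) were summed to genes by Ensembl stem. Genes with a mean of at least 5 TPM over the 7 libraries were compared as log2(TPM + 0.5), which understates ratios of low genes; 2-fold counted as different. Loci without a gene ID (0.111% of the listed G11 reads) stayed out of gene values. Intervals of ratios are Clopper-Pearson and of shares Wilson, both 95%; 3 reads, the floor, are worth 0.144 TPM in G11 and 0.179 TPM in the control. Reads carry no molecular identifiers. Fisher's exact tests compare libraries; p-values were adjusted by Benjamini-Hochberg within a family. Usage kept isoforms of at least 5% apart. The long form of the exon is 145 nt and the short form 133 nt; the second alternative exon is 144 or 147 nt. Exons, sequences, length and GC content came from GENCODE 29, and 7872 of 7878 genes had the last 2. ENST00000438146.7 was matched to another version of the same ID. Members and lists were chosen with earlier results of these data known. Named genes were RBFOX2 isoforms of at least 3%, the 12 largest rises and falls (mean of at least 10 TPM), up to 6 genes per direction outside the range, the 8 and 5 largest usage distances and up to 4 members per list. A few genes that the rule names are not reported here. Rarer RBFOX2 isoforms with annotated exons were added after their values were seen. The gene comparison was run on simulated data with counting noise only. These held no effect of library, length or GC content, so the run does not bear on such effects. Python 3.11.15, pandas 2.3.3, scipy 1.17.1 and statsmodels 0.14.6 were used.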

Additional observations from a re-analysis of the deposited data

How the results depend on the processing

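The share of the long form (differences of -32.01 and -29.5 points), the counts of RBFOX2 isoforms and the shares of the first exon and the second alternative exon kept their direction and their side of the threshold under the alternatives run for each. The RBFOX2 log2 ratio was -0.22 with reference IDs alone and -0.23 with isoforms of at least 1 TPM, in place of -0.37. Against the median of the other 6 libraries it was -0.16. That reference left 0 genes higher and 19 lower, and 9 of 24 lists below 0 in place of 15. With the length and GC trend removed, 97 genes were higher, 252 lower and 42 outside the range, in place of 57, 816 and 23. A 1.5-fold threshold gave 512 higher and 1775 lower, and reference IDs alone 98 higher. No filter gave 1631 lower; a minimum of 20 TPM gave 418 lower, 9 outside the range and -0.37 in the bin of highest GC content, in place of -0.55. A 2-fold threshold left 6 outside the range. Keeping all isoforms apart gave the RBFOX targets a median distance of 0.128, in place of 0.0810 (0.0542 in place of 0.0341 over all genes), and RBFOX2 rank 2 by distance to its nearest library. Isoforms of at least 1 TPM gave 0.0475 over 8 targets (0.0157 over all genes) and a minimum of 500 reads 0.0493 over 6 (0.0250). Scaling to the listed reads, chosen after seeing the data, gave 65 higher and 769 lower. The cause of these shifts was not tested. Leaving out a replicate was not possible with 1 library per group. No paired analysis was possible because each group holds a single library. Depth limits isoforms of few reads most, such as ENST00000414461.6 (22 and 1).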

Other observations

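Among the listed isoforms, those that end well upstream of the 3′ end of their gene held a smaller share of reads in G11 than in the control. The measure was chosen after the usage values were seen. Only isoforms with a read in the control are listed, so isoforms of this kind seen in G11 alone are not counted. What that choice adds to the difference was not tested. Among 3518 genes, the median share of reads on isoforms that end at least 1000 nt upstream was 3.55% in the control and 2.29% in G11. The share was lower by at least 10 points in 207 genes and higher in 16. The count of lower genes against the same control was 227 in G5, 155 in G12, 175 in G13 and 254 in G14, and smaller than these in G3. For EPRS1 the share was 77.6% in the control and 20.2% in G11, with 27.4% in G12, 23.6% in G5, 53.3% in G3, 11.8% in G14 and 17.96% in G13. For AGGF1 it was 75.7% in the control and 33.2% in G11, and for FEZ2 75.3% and 36.3%. The control was the highest of the 7 libraries for each of these 3 genes. All 3 come from the genes named for their usage distance to the control, a choice that favours such a result. In CEP89, named in the same way, G3 lay close to the control (69.0% and 70.1%), with G11 at 35.9%. Whether the control stands apart from the remaining libraries in this share can therefore not be read from these genes.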
